A study of Mus musculus with 8 samples.

Results

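YAP1 and its close relative TAZ, encoded by Wwtr1, the 4 TEAD transcription factors and 4 of their best known target genes form the group of 10 genes described here. The group was set by a list of symbols, with the older names Ctgf (now Ccn2) and Cyr61 (now Ccn1), and all 10 were found among the 23284 genes in the count files. The cells, named preSC, are a cultured mouse model of the neuroendocrine lung cells that precede small cell cancer, of 129/SvJ and C57BL/6 strain. Both groups came from cells with a Chga-GFP reporter, lox alleles of Rb and p53 on both chromosomes and a p130 lox allele. They were polyclonal populations, not single clones, and differed in the guide RNA they had been given. The 4 Max knockout (KO) libraries came from cells transduced with a guide RNA against Max, and the 4 control libraries from cells with a control guide. Both were then selected with puromycin, expanded and not treated further. Neither the share of edited Max alleles nor how the lox alleles had been recombined is given in the sources used here.

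YAP1 and TAZ do not bind DNA themselves. They enter the nucleus and join a TEAD protein, which holds the DNA, and together they raise genes for matrix-associated signals, cytoskeleton and growth. The Hippo kinases restrain them: STK3 and STK4 with SAV1 activate LATS1 and LATS2 with MOB1, and the LATS kinases mark YAP1 and TAZ for retention in the cytoplasm or for destruction. Angiomotins such as AMOTL2 hold YAP1 back as well, so that Amotl2 is at once a target and a brake. In the lung, YAP1 is known as a gene of epithelial and mesenchymal cells that is low in most neuroendocrine small cell tumours. Since this activity is set mainly by phosphorylation and location of the proteins, mRNA counts measure only part of it.

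The promoters below are marked for 2 DNA words, the core of the TEAD site and the E-box of MYC with MAX. Each of those printed holds the first word, which not all windows of the group do, and only that of Yap1 holds the second. Each is the stretch of 250 bases before the transcription start, 5′ to 3′, from RefSeq (GRCm38.p6, whereas the counts were made on mm9). Capitals mark GGAATG, the core of the TEAD site (CATTCC when it lies on the other strand), and CACGTG, the E-box bound by MYC with MAX. Amotl2 (chr9:102717554-102717803, plus strand) passed the test below, Cyr61 (chr3:145649986-145650235, minus strand) differed among the control libraries, Ankrd1 (chr19:36119845-36120094, minus strand) had no read, and Yap1 (chr9:8004597-8004846, minus strand) carried both words.
Amotl2: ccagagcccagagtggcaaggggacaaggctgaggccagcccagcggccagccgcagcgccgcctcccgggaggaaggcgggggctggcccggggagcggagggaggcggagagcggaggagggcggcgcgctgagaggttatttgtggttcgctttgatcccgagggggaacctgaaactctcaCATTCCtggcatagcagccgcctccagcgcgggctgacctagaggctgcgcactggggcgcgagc
Cyr61: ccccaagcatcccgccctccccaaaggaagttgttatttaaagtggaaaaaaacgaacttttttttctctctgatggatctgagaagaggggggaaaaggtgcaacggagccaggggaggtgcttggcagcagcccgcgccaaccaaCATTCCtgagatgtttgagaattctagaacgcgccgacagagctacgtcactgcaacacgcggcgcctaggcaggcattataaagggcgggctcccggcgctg
Ankrd1: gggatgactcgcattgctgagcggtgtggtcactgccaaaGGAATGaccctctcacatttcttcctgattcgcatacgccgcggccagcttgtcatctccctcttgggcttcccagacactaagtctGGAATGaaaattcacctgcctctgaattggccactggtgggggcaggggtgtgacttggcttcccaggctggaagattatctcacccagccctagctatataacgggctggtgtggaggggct
Yap1: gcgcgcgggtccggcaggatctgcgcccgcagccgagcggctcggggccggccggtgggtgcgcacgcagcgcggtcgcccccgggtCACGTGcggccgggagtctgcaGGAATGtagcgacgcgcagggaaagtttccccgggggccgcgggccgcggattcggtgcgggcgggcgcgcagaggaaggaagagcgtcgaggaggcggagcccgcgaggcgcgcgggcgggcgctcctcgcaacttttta

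Promoters were found in the RefSeq table for 7 of the 10 genes, at 10 start sites in all, and not for Tead1, Tead4 and Ctgf. GGAATG was present, on either strand, in 8 of these 10 windows and in 6 of the 7 genes, where 12.6% of 32851 promoter windows of the same length held it. The window of Tead2 and the first-listed window of Tead3 did not hold it. Genes with several listed starts (Tead3 and Wwtr1) had more than one chance of a match, and the windows of Wwtr1 overlap and hold the same single match, counted in both. The match lay 65 bases upstream of the start in Amotl2, 103 in Cyr61, 141 in Yap1, and 210 and 123 in Ankrd1. CACGTG was present in 1 of the 10 windows, 163 bases upstream of Yap1, beside 6.02% of all windows. CACGTG reads the same on both strands and does not overlap GGAATG in that promoter. These are matches of letters and not measured binding sites.

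The 8 libraries held 13711278 to 19804949 reads counted in genes, so that 1 read corresponded to 0.0505 to 0.0729 CPM, the read count scaled by library size. Where a library held no read of a gene, its level there could still be as high as 0.151 to 0.219 CPM, depending on the library (3 counts, counting error only). A count filter left 13358 genes to be tested between the groups by edgeR's quasi-likelihood test, with p-values adjusted over all of them by the Benjamini-Hochberg method and a threshold of 0.05. Past it were 1457 genes higher and 1627 lower in the knockout, or 1160 and 1965 with upper-quartile scaling. Max mRNA itself ran from 42.3 to 68.0 CPM in the knockout and from 61.9 to 75.2 CPM among controls, and did not pass (adjusted p = 0.0955, but 0.0228 without knockout library 4). Of the 10 neuroendocrine markers, 9 were tested, and each of these was at 34.2 CPM or more in every library, with Dll3 the lowest. Chga, whose reporter the cells carried, was at 398 CPM or more. Of the 9 tested, 1 was higher in the knockout, 2 were lower and 6 did not pass, beside 10.9% of all tested genes higher and 12.2% lower. The higher one was Uchl1 (edgeR adjusted p = 0.0496), whose groups overlapped. The lower ones were Chgb and Dll3, whose groups did not. Neurod1 was under the filter. It had 28, 21, 33 and 2 reads in controls 1 to 4 and 3, 0, 1 and 1 in knockout libraries 1 to 4. Controls 1 and 2 were alike (Pearson correlation of log2 CPM across genes 0.995), whereas controls 3 and 4 differed from them (0.973 to 0.983) and as much from each other (0.983). Controls 3 and 4 had 23.3% and 23.4% of uniquely aligned reads outside annotated exons against 18.5% and 18.6%. Fits with controls 1 and 2 alone and with controls 3 and 4 alone are therefore given where they change a result, although the latter 2 are no matched pair. Controls 1 and 2 were put together because they were alike here, so a fit with them alone understates the spread of controls. Its p-values run low and its numbers of calls run high. Whether libraries of a group were separate cultures is not stated in the labels, and p-values cover only the spread among these libraries, possibly technical.

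Amotl2 was lower in every knockout library, Tead1 was slightly lower, and Yap1 was present at a steady low level, while Wwtr1, Tead4, Ctgf and Ankrd1 were close to or at 0 reads in both groups. Of the 10 genes, 4 passed the count filter. Of these, Amotl2, Tead1 and Tead3 were lower in the knockout past the threshold, as were 12.2% of all tested genes, and Yap1 did not pass. The same 3 genes were those whose groups did not overlap in the lower direction, beside 13.1% of tested genes. The other 6 genes were under the filter and are described by their reads.

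**Figure D1:**
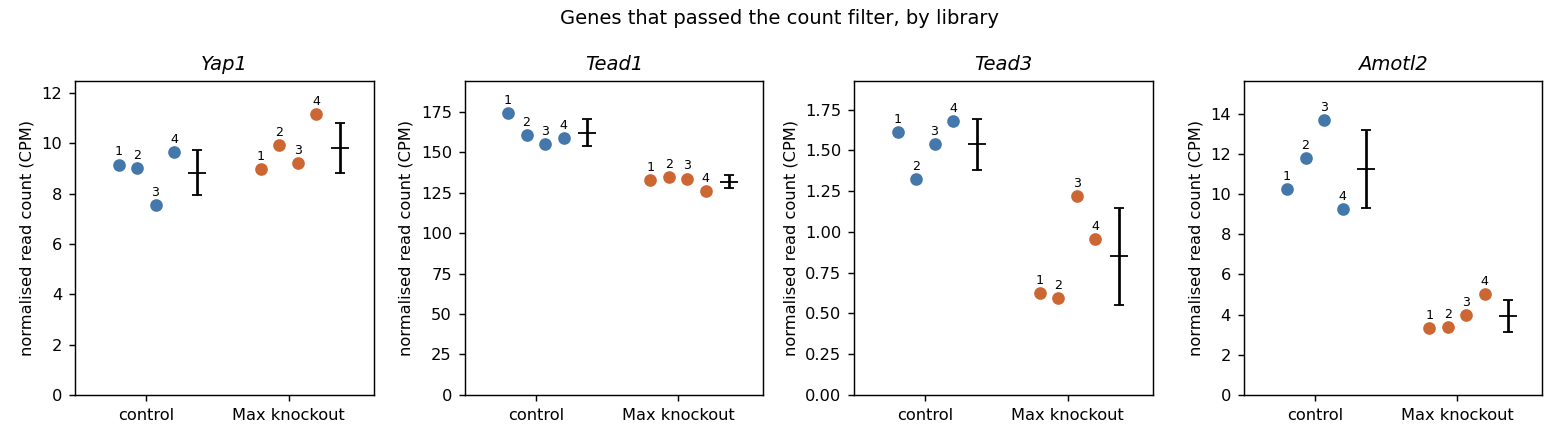
Normalised read count (CPM, linear axes from 0) of the 4 genes that passed the count filter, with each library as a numbered point and the mean and SD of each group of 4 as a black bar. The knockout points of Tead1, Tead3 and Amotl2 all lie under the control points, whereas those of Yap1 overlap them.

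Yap1, the coactivator gene, was at 9.16, 9.02, 7.54 and 9.65 CPM in controls 1 to 4 and at 8.98, 9.95, 9.21 and 11.2 CPM in knockout libraries 1 to 4. Control 3 was the lowest and knockout library 4 the highest, and the groups overlapped. The means were 8.84 ± 0.910 and 9.83 ± 0.984 CPM (SD, n = 4 each). The log2 fold change of 0.15 (SE 0.12) did not pass the threshold (edgeR adjusted p = 0.427), with a 95% interval from -0.12 to 0.42.

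Wwtr1, which encodes TAZ, had 0, 1, 3 and 3 reads in controls 1 to 4 and 0, 0, 2 and 0 in the knockout libraries. Pooled over each group this was 7 and 2 reads, a ratio of 3.41 with an exact 95% interval of 0.649 to 33.6 that covers counting error only. A difference in Wwtr1 was not detectable at this depth. In bulk RNA, fewer cells of a type and less RNA per cell cannot be told apart.

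Among the TEAD genes, nearly all reads came from Tead1. It held 98.6% to 99.6% of TEAD reads in the 8 libraries, and 96.0% to 98.7% once reads were divided by transcript length. Tead1 was at 174, 161, 155 and 159 CPM in controls 1 to 4 and at 133, 135, 134 and 126 CPM in knockout libraries 1 to 4. The knockout libraries were close together and all lay below the lowest control. Means were 162 ± 8.27 and 132 ± 3.94 CPM (SD, n = 4 each), a 1.23-fold lower level (log2 -0.30, SE 0.07, edgeR adjusted p = 0.00701). The fall of Tead1 was of similar size with only controls 1 and 2 (-0.35) and with only controls 3 and 4 (-0.26), and past the threshold in both.

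Tead3 was a minor TEAD gene, at 1.61, 1.32, 1.54 and 1.68 CPM in controls 1 to 4 and 0.626, 0.597, 1.22 and 0.957 CPM in knockout libraries 1 to 4. The groups did not overlap, but knockout library 3 came close to control 2. The level was 1.82-fold lower in the knockout (log2 -0.87, SE 0.27, edgeR adjusted p = 0.0394). These values rest on 9 to 32 reads per library, and the call ended without knockout library 1, 2 or 4 or without control 1, 2 or 4 (adjusted p from 0.0540 to 0.125). DESeq2 (0.0782), the fit without the filter (0.0700) and the fit with only controls 3 and 4 (0.0674) did not call Tead3 either.

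Tead2 had 7, 11, 6 and 11 reads in controls 1 to 4 and 1, 0, 4 and 5 in knockout libraries 1 to 4. All controls lay above all knockout libraries, both in reads and in CPM, and Tead2 was the 1 gene of the 6 under the filter with such a separation in the lower direction (3.56% of the 5766 genes under the filter with a read had it). The pooled level in the controls was 3.41 times that in the knockout, with an exact 95% interval of 1.65 to 7.72 for counting error only. When the filter was dropped, Tead2 did not pass (edgeR adjusted p = 0.0814). Tead4, known for its role in the early embryo, had 1 read in all 8 libraries together, in knockout library 3.

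**Figure D2:**
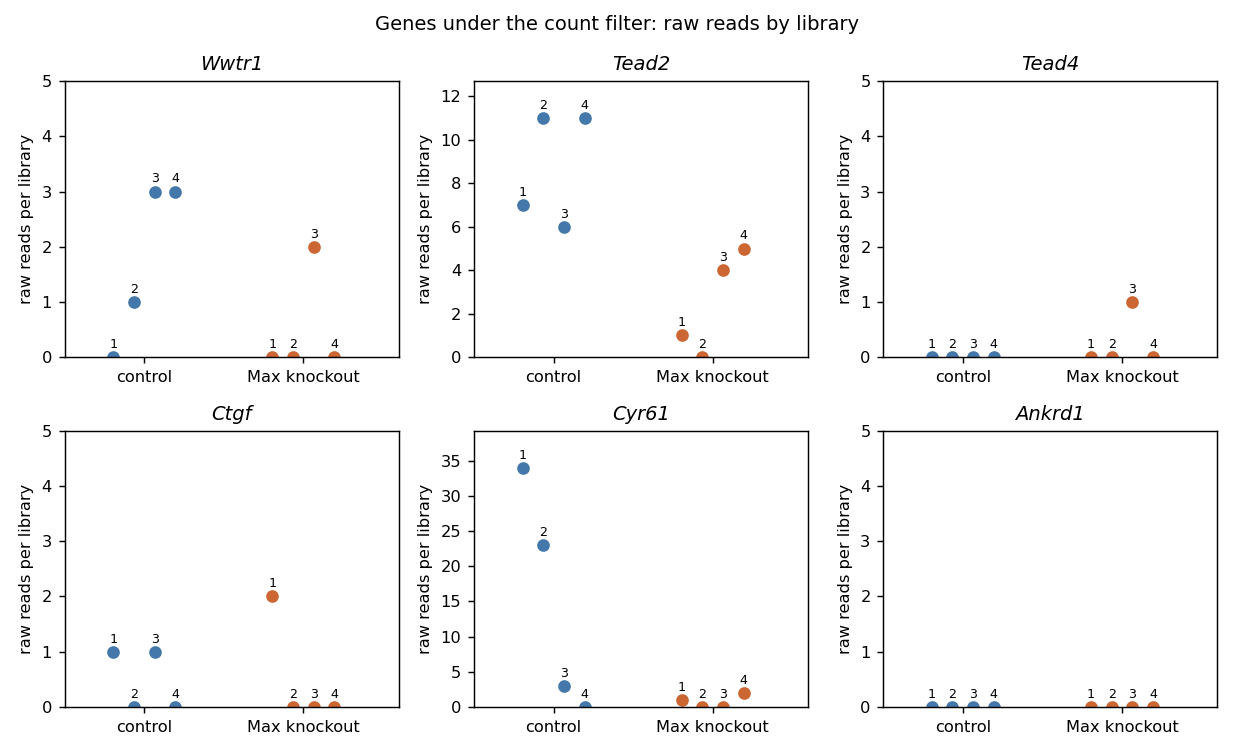
Raw reads per library (linear axes, libraries numbered) of the 6 genes under the count filter. Cyr61 is high in controls 1 and 2 alone, the control points of Tead2 lie above its knockout points, and the other 4 genes have at most 3 reads in a library.

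Amotl2 was the only target gene of the group that passed the count filter. It encodes an angiomotin, which binds YAP1 at cell junctions. Amotl2 was at 10.3, 11.8, 13.7 and 9.26 CPM in controls 1 to 4 and at 3.34, 3.38, 4.00 and 5.04 CPM in knockout libraries 1 to 4. The highest knockout library, 4, was well below the lowest control, also 4. Amotl2 fell from 11.3 ± 1.93 to 3.94 ± 0.792 CPM (SD, n = 4 each), 2.85-fold (log2 -1.51, SE 0.17, 95% interval -1.89 to -1.13, edgeR adjusted p = 0.000137). With only controls 1 and 2 the log2 fold change of Amotl2 was -1.49, and with only controls 3 and 4 it was -1.54. Its promoter, printed above, holds CATTCC but no CACGTG.

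The fold changes of the other angiomotin genes were nearer to 0. Amotl1 fell from 14.0 ± 2.07 to 10.3 ± 0.468 CPM (SD, n = 4 each; log2 -0.44, SE 0.12, edgeR adjusted p = 0.0186), a call that ended without knockout library 2 (0.0524) or 4 (0.0530). Amot was at 9.47 ± 0.658 CPM in the controls and 10.8 ± 1.37 CPM in the knockout (adjusted p = 0.278). The 95% intervals of Amotl2 (-1.89 to -1.13) and Amotl1 (-0.70 to -0.18) did not overlap, and the difference between the 2 genes was not tested.

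Cyr61 encodes a secreted matrix protein of the CCN family that is induced rapidly by YAP1. It had 34, 23, 3 and 0 reads in controls 1 to 4, and 1, 0, 0 and 2 reads in knockout libraries 1 to 4. Controls 1 and 2 were high, at 1.72 and 1.40 CPM, whereas control 3 was at 0.219 CPM and control 4 at 0, inside the knockout range of 0 to 0.127 CPM, so the groups overlapped. The pooled ratio of control to knockout was 19.5 with an exact 95% interval of 6.35 to 97.1 for counting error, and it comes from 2 of the 4 controls. With only these 2 controls, Cyr61 passed the filter, at a log2 fold change of -4.87. It entered that fit through the controls in which it was high, so its p-value there is not given. With all 4 controls, Cyr61 did not pass in edgeR's test without the filter (adjusted p = 0.0735). DESeq2 called it lower (log2 -4.18), but nearly all its reads lay in controls 1 and 2, so that p-value is not given either. The neuroendocrine peptide gene Calca was split between the controls in a like way, at 1980 and 1783 CPM against 399 and 467 CPM, with the knockout at 524 to 589 CPM. Whether the 2 splits are related was not tested.

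Ctgf, the other classical CCN target, had 1, 0, 1 and 0 reads in controls 1 to 4 and 2, 0, 0 and 0 in knockout libraries 1 to 4. Both pooled levels were under the limit that 3 counts allow over a group, 0.0446 CPM in the controls and 0.0458 CPM in the knockout. Ankrd1, a target best known from heart muscle, was listed at 0 in all 8 libraries, although its promoter held GGAATG in 2 places. In the single libraries that held a read, Ctgf was above those limits, up to 0.103 CPM in knockout library 1. With so few reads of Ctgf and none of Ankrd1, a difference between the groups could not be seen at this depth.

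The YAP and TEAD targets are also genes of mesenchymal cells, so the fixed mesenchyme markers are given beside them. Of 10 such markers, Lum was at 0 in all libraries, and Col1a2, Col3a1, Acta2 and Postn were at or below 0.201, 0.0656, 0.154 and 0.182 CPM. Thy1 had 12, 10, 11 and 7 reads in controls 1 to 4 and 1, 0, 1 and 0 reads in knockout libraries 1 to 4, and Col1a1 had 8, 5, 3 and 6 against 1, 2, 2 and 3 reads. In CPM the groups of Thy1 and of Col1a1 did not overlap and the knockout was the lower. Of the 5766 genes under the filter with a read, 3.56% had such a separation. For Col1a1, control 3 and knockout library 4 had 3 reads each and were at 0.219 and 0.190 CPM. Pdgfrb overlapped, with 0, 2, 7 and 5 control reads against 0, 3, 0 and 1 knockout reads. Of the 2 tested, Pdgfra was lower in the knockout (1.35 ± 0.639 to 0.260 ± 0.139 CPM) and Dcn was higher (32.3 ± 9.77 to 55.5 ± 6.78 CPM; SD, n = 4 each). The summed level of the list, most of it Dcn, ran from 25.2 to 45.4 CPM in the controls and from 48.7 to 65.0 CPM in the knockout. The summed level of 5 endothelial markers reached 2.12 CPM at most, that of 5 haematopoietic markers 5.83 CPM and that of 10 other lung epithelial markers 14.0 CPM. Emcn, of the endothelial list, and Krt5, of the lung epithelial list, were at 0, but other markers of both lists were read. Pecam1 had 8 to 16 reads per library and Tek 4 to 10. Sftpc, Foxj1, Ager and Hopx passed the count filter. Only Hopx among them passed the threshold, higher in the knockout (edgeR adjusted p = 0.0458). The part of such cells in the target genes' values was not tested.

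**Figure D3:**
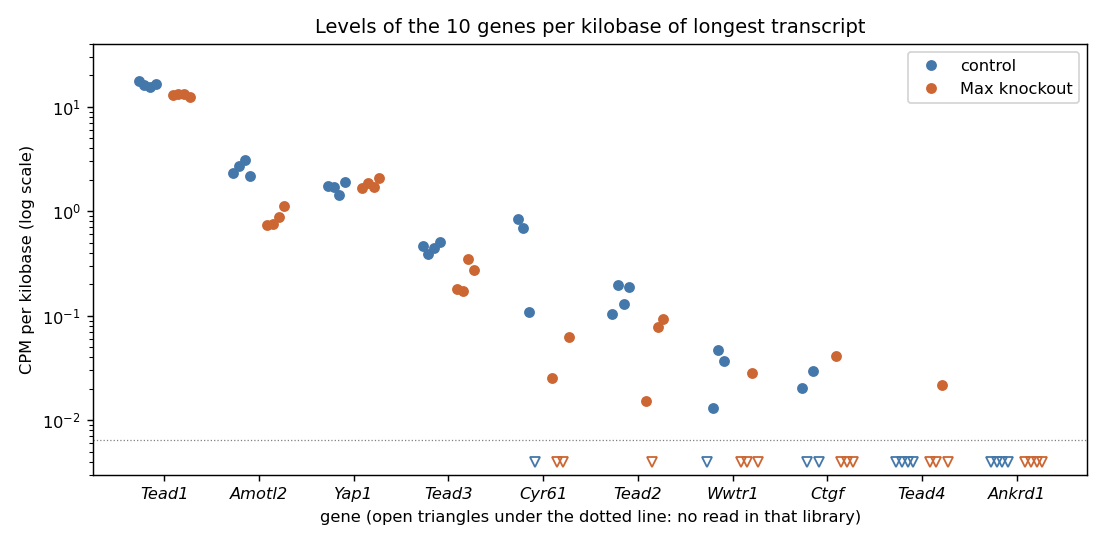
Level of each gene per kilobase of its longest transcript (CPM per kilobase, log axis) in every library, with open triangles under the dotted line for libraries without a read. Tead1 stands highest in both groups, and Amotl2 lies above Yap1 in the controls and below it in the knockout.

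Levels can be ranked between genes only per length, here as CPM per kilobase of the longest GENCODE transcript, which need not be the form these cells use. In the controls the order was Tead1 (16.4 ± 0.830), Amotl2 (2.57 ± 0.410), Yap1 (1.69 ± 0.195), Tead3 (0.452 ± 0.0489), Cyr61 (0.413 ± 0.421) and Tead2 (0.154 ± 0.0451 CPM per kilobase; SD, n = 4 each). Cyr61 did not differ from its neighbours beyond its spread. Below these were Wwtr1 (0.0241 ± 0.0214) and Ctgf (0.0124 ± 0.0148), which did not differ from each other beyond their spread, and then Tead4 and Ankrd1 without a read. In the knockout, Yap1 (1.84 ± 0.190) stood above Amotl2 (0.880 ± 0.179 CPM per kilobase). The 2 genes therefore changed places, with no overlap between them in either group.

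The genes whose levels tracked Amotl2 most closely over the 8 libraries were Nrxn2, Tmem44, Exog, Fam184a and Ip6k2, the 5 closest of 11113 candidates. Nrxn2 encodes a synaptic adhesion protein, Exog a mitochondrial nuclease and Ip6k2 an inositol phosphate kinase. All 5 were lower in the knockout, with log2 fold changes from -0.38 for Fam184a to -1.51 for Tmem44 (edgeR adjusted p from 0.000122 to 0.0111). The likeness was Pearson's r of log2 CPM, from 0.990 to 0.998 with the group difference included and from 0.864 to 0.980 once group means were taken off. It is a description of genes picked for it, in libraries that share depth and preparation.

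Upstream of YAP1, the core kinase genes that were tested (Stk3, Stk4 and Lats1) did not pass the threshold, and Lats2 was under the filter. In a list of 25 Hippo pathway genes, 22 were tested, of which 3 were higher, 4 lower and 15 not past the threshold, beside 10.9% of all tested genes higher and 12.2% lower (23.1% in either direction). The median log2 fold change of the list was -0.03, and that of all tested genes was -0.0036. With upper-quartile scaling, 0 were higher and 4 lower. The same 0 higher was found with only controls 3 and 4, and when each knockout library, control 1 or control 2 was omitted in turn.

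**Figure D4:**
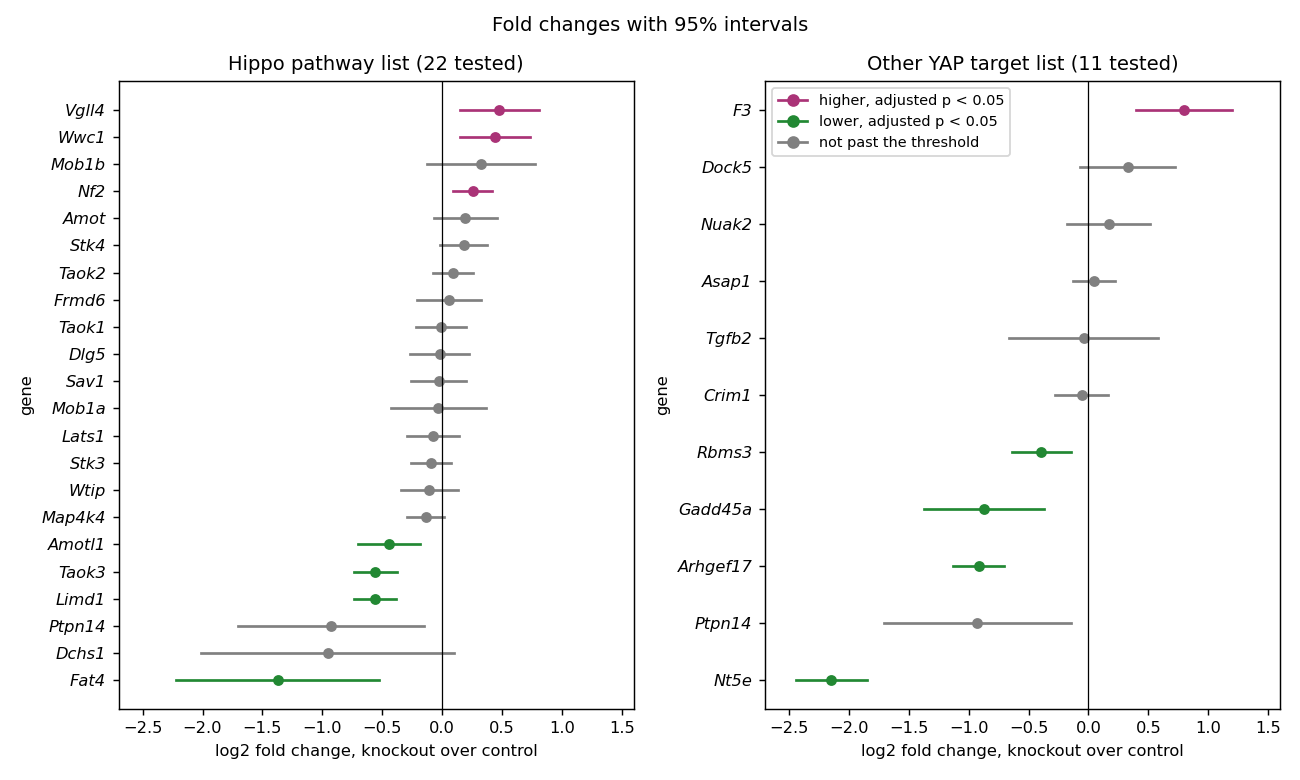
Log2 fold changes, knockout over control, with 95% intervals for the tested genes of the Hippo pathway list and of the other YAP target list, coloured by whether they passed an adjusted p of 0.05 and in which direction. The core kinase genes (Stk3, Stk4, Lats1) lie near 0, and Nt5e has the lowest value of the target list.

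The kinase gene Stk4 was at 163 ± 14.6 CPM in the controls and 185 ± 18.1 CPM in the knockout (SD, n = 4 each; log2 0.18, edgeR adjusted p = 0.177). Its relative Stk3 (-0.09, 0.431), the scaffold gene Sav1 (-0.03, 0.880) and the YAP1 kinase gene Lats1 (-0.08, 0.634) did not pass either. With only controls 1 and 2, the controls in which it was highest, Sav1 was at -0.21 and past the threshold. Mob1a and Mob1b, which encode the LATS cofactors, had adjusted p of 0.929 and 0.291. Lats2, itself a YAP1 target, had 0 to 2 reads per knockout library and 0 to 7 per control.

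Taok3, which encodes a kinase acting on the Hippo kinases, was lower in the knockout in all 4 libraries. It went from 43.2 ± 3.27 to 29.4 ± 1.44 CPM (SD, n = 4 each; log2 -0.56, SE 0.08, edgeR adjusted p = 0.000653), while Taok1 (-0.01, 0.969) and Taok2 (0.09, 0.420) did not pass. Limd1, whose LIM domain protein binds LATS and holds it back, fell from 79.5 ± 5.32 to 54.0 ± 4.10 CPM (log2 -0.56, SE 0.08, adjusted p = 0.000594). The related gene Wtip did not pass (adjusted p = 0.532), and Jub, which encodes AJUBA, was under the filter with 5 to 17 reads per library. Taok3 and Limd1 kept their calls under all 17 alternatives.

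Nf2 and Wwc1 encode merlin and KIBRA, which recruit LATS to the membrane. Nf2 was at 161 ± 12.4 CPM in the controls and 192 ± 7.46 CPM in the knockout (SD, n = 4 each; log2 0.25, edgeR adjusted p = 0.0278), and Wwc1 at 39.0 ± 8.79 and 53.1 ± 2.31 CPM (0.44, 0.0321). The calls of both ended without any 1 knockout library, control 1 or control 2 (adjusted p up to 0.0984 for Nf2 and 0.0918 for Wwc1). With only controls 3 and 4 they were 0.16 (0.195) for Nf2 and 0.20 (0.193) for Wwc1. Vgll4, whose product competes with YAP1 for TEAD, was at 6.96 ± 1.46 and 9.71 ± 0.738 CPM (0.48, 0.0403). The call of Vgll4 ended without any 1 library other than control 4 (adjusted p from 0.0537 to 0.120), and its value was 0.28 with only controls 3 and 4 (0.225).

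Among the remaining regulators, values differed between controls. Fat4 was at 4.93, 5.11, 1.98 and 1.96 CPM in controls 1 to 4 and at 0.929 to 1.98 CPM in the knockout. It was called lower (log2 -1.37, SE 0.39, edgeR adjusted p = 0.0243), but at -0.54 (0.290) with only controls 3 and 4, and not without knockout library 1 (0.0803) or 2 (0.0819), control 1 (0.0590) or control 2 (0.0694). Dchs1, which encodes the FAT4 ligand, was at 36.8 CPM in control 3 and at 6.54 to 12.2 CPM in the other 7 libraries, and did not pass (adjusted p = 0.181). With only controls 3 and 4, the pair that holds its highest library, Dchs1 was at -1.55 and past the threshold. Ptpn14, a phosphatase gene whose product binds YAP1, was at 6.44 and 7.16 CPM in controls 1 and 2, 15.0 and 22.4 CPM in controls 3 and 4, and 6.03 to 7.50 CPM in the knockout. Ptpn14 did not pass with all controls in edgeR's test (-0.93, adjusted p = 0.0835) but did in DESeq2 (0.0249), and when control 1 (-1.16, 0.0218) or control 2 (-1.13, 0.0408) was left out. With only controls 3 and 4, in which Ptpn14 was high, it was at -1.50 and past the threshold, and that p-value is not given.

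A further list of 18 known YAP and TAZ target genes, recalled from a published set and possibly different from it in a gene, split in direction. Lats2 and Ptpn14 stand in this list and in the Hippo list. Of the 18 genes, 11 were tested: 4 were lower, 1 higher and 6 did not pass, beside 12.2% of all tested genes lower and 10.9% higher. The median of the list was -0.06 and that of all tested genes -0.0036. The remaining 7, Myof, Lats2, Axl, Igfbp3, Fjx1, Foxf2 and Ccdc80, were under the filter, with at most 7 reads in a library. Nt5e, which encodes the surface enzyme that makes adenosine, had the lowest fold change of the 11 and fell from 34.9 ± 5.19 to 7.89 ± 1.23 CPM (SD, n = 4 each; 4.43-fold, log2 -2.15, SE 0.14, edgeR adjusted p = 8.19e-06). Arhgef17, which encodes a guanine nucleotide exchange factor, was at 168, 146, 154 and 177 CPM in controls 1 to 4 and 77.2, 80.3, 83.5 and 101 CPM in knockout libraries 1 to 4. Its fold change was -0.92 on the log2 scale (SE 0.10, adjusted p = 8.36e-05), without overlap between groups. Nt5e and Arhgef17 kept their calls under all 17 alternatives.

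Gadd45a, a stress and DNA damage gene, was at 19.2, 20.3, 10.7 and 9.65 CPM in controls 1 to 4 and 7.66 to 8.77 CPM in the knockout (log2 -0.88, edgeR adjusted p = 0.0173). Against controls 1 and 2 the fall of Gadd45a was -1.27, and against controls 3 and 4 it was -0.32 and did not pass (0.119). The call of Gadd45a also ended without knockout library 2 (0.0564). Rbms3, an RNA-binding protein gene, was lower by a small amount (-0.39, 0.0257), and not past the threshold without knockout library 2, 3 or 4 (0.0641 to 0.0683). F3, the gene of tissue factor, went the other way, from 2.95 ± 0.568 to 5.16 ± 0.674 CPM (SD, n = 4 each; log2 0.80, SE 0.18, adjusted p = 0.00873), and stayed past the threshold under all 17 alternatives. Dock5 and Nuak2 did not pass with all 4 controls. Dock5 was at 33.0, 33.3, 42.6 and 62.8 CPM in controls 1 to 4 and at 49.6 to 59.1 CPM in the knockout. With only controls 1 and 2 its log2 fold change was 0.70, and that of Nuak2 was 0.45 with only controls 3 and 4. Each was called higher there, after the controls nearer to the knockout were left out, so those p-values are not given.

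**Figure D5:**
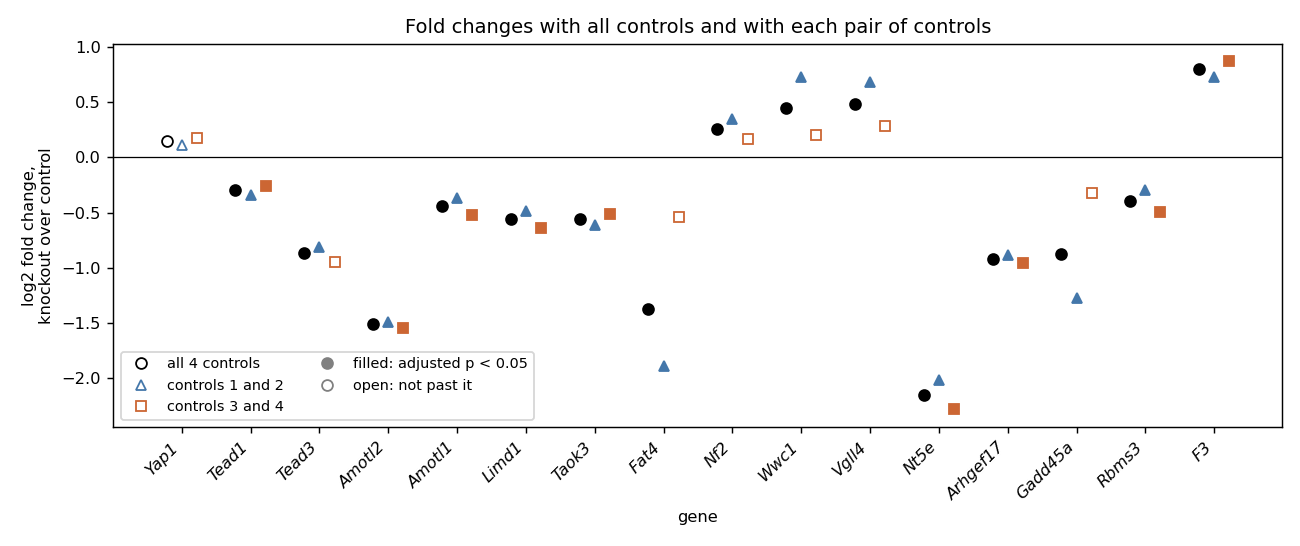
Log2 fold changes, knockout over control, of the 4 tested genes of the group and of the Hippo pathway and target genes that passed the test, with all 4 controls (circles), controls 1 and 2 (triangles) and controls 3 and 4 (squares), filled where the adjusted p was under 0.05. Amotl2, Tead1, Nt5e, Arhgef17, Limd1 and Taok3 keep their place with either pair, whereas Fat4, Gadd45a, Nf2, Wwc1 and Vgll4 come nearer to 0 with controls 3 and 4.

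Among relatives of Ctgf and Cyr61, one CCN gene was abundant. Nov, which encodes CCN3 and is the third CCN gene, was at 2099, 1987, 1683 and 2258 CPM in controls 1 to 4 and 2120, 2360, 2325 and 2335 CPM in knockout libraries 1 to 4. The groups overlapped, and the difference of 0.19 on the log2 scale did not pass (edgeR adjusted p = 0.207). Per length, Nov stood at 708 ± 94.8 CPM per kilobase in the controls, against 0.413 ± 0.421 for Cyr61 and 0.0124 ± 0.0148 for Ctgf (SD, n = 4 each). Wisp3 was at 2.61 ± 0.593 and 2.85 ± 0.194 CPM (adjusted p = 0.693), and Wisp1 and Wisp2 had at most 6 and 2 reads in a library. Of the other vestigial-like cofactor genes that bind TEAD, Vgll1 had 2 reads in all, Vgll2 none, and Vgll3 2 to 9 reads per library.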

How the data were processed

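RNA of 8 libraries was measured as raw read counts per gene, which the authors made, per the submitters' processing notes, with bcl2fastq 1.8.4, TopHat2 2.0.12 (build mm9) and HTSeq 0.6.1. The annotation and the strand setting used for counting are unknown here (not given in the sources used here), so overlapping genes cannot be told apart by strand. The 5 summary counters of HTSeq in each file, 18.5% to 23.4% (no feature) and 1.00% to 1.11% (ambiguous) of uniquely aligned reads and 9.21% to 11.5% with several alignments, were left out.

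Genes were kept with filterByExpr, scaled with TMM and tested in R 4.3.3 with edgeR 4.0.16 (robust quasi-likelihood F test, group as the only term). SEs come from the fold change and F. CPM use TMM factors for tested genes and plain totals otherwise and per kilobase. The method was tested on simulated counts. Replicate pairs differed by more than sampling noise (chi-square per gene 3.83 or more), so none was counted once. Named genes were the 10 genes, list genes past the threshold, CCN and VGLL relatives, Max and the 5 closest to Amotl2; list genes that did not pass, and Calca and the markers, were named after their values were seen. The genes, lists and alternatives were chosen with earlier results of these data known. The alternatives were other scalings, no filter, DESeq2 1.42.0, limma-voom (limma 3.58.1), no robust estimation, a replicate term, 1 library left out, and each pair of controls.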

Additional observations from a re-analysis of the deposited data

Results flagged for a closer look

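The search covered 77 genes: the group, the Hippo, target, CCN and VGLL lists, Max, some of the markers and the genes closest to Amotl2. In 140 groups of 4 libraries with any spread, 14 values lay apart from the other 3 by a gap above Dixon's 95% limit. Chance gives such a gap in about 1 in 20 groups of continuous values. For 10 of the 14 values the other 3 libraries had no read, so that a single read is enough and that rate does not hold. These were, in knockout library 1, Ctgf (0.103 CPM, 2 reads), Igfbp3 (0.103 CPM, 2 reads) and Acta2 (0.154 CPM, 3 reads); in knockout library 2, Axl and Col3a1 (0.0656 CPM, 1 read each); in knockout library 3, Wwtr1 and Myof (0.134 CPM, 2 reads each) and Tead4 (0.0669 CPM, 1 read); and in control 4, Vgll1 (0.116 CPM, 2 reads) and Col3a1 (0.0579 CPM, 1 read).

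The other 4 values were also in knockout libraries. Knockout library 1 was low for Nov (2120 CPM, against 2325 to 2360 CPM in the other 3), for Map4k4 (256 CPM, against 287 to 292 CPM) and for Pdgfra (0.0522 CPM from 1 read, against 0.319 to 0.339 CPM). Knockout library 4 was high for Exog (18.2 CPM, against 14.7 to 14.9 CPM).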

How the results depend on the processing

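Of the 10 genes, Amotl2 and Tead1 stayed lower past the threshold and Yap1 stayed short of it under all 17 alternatives, with log2 fold changes from -1.66 to -1.41, -0.35 to -0.26 and 0.08 to 0.19. The number called lower was 2 to 3 over the fits without 1 library, against 3. DESeq2 called Amotl2 and Tead1 lower but not Tead3. It also called Cyr61, whose reads lay nearly all in controls 1 and 2, so that call does not stand in for Tead3. In the Hippo list, 3 genes were higher and 4 lower, against 0 higher with upper-quartile scaling and with only controls 3 and 4, and 0 to 3 higher and 2 to 4 lower without 1 library. In the other target list, 1 was higher and 4 lower, against 2 higher with only controls 1 and 2 (Dock5 added) and with only controls 3 and 4 (Nuak2 added), and 1 to 2 higher and 2 to 5 lower without 1 library. Over all genes, 1457 were higher and 1627 lower, against 2987 and 3081 with only controls 1 and 2, and 963 to 1846 and 1139 to 1929 without 1 library. Wisp3 turned to -0.13 with only controls 3 and 4. The causes were not tested. With the replicate number as a term (replicate block), 1 Hippo gene was higher and 2 lower, 2 of the 10 genes were lower (Tead3 at 0.0627 and, of the list, Amotl1 at 0.0531 and Fat4 at 0.0828 lost their calls, as did Nf2 and Vgll4), and 1208 and 1324 of all genes were higher and lower. Same-numbered libraries did not deviate together (correlations from -0.20 to 0.0020, none best with its own number). Because controls 3 and 4 deviated widely, this check could miss a small shared effect and does not exclude pairing. Depth leaves Wwtr1, Tead4, Ctgf and Ankrd1 unmeasured beyond a few reads.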
